A study of Homo sapiens with 9 samples.

Results

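The nuclear-coded subunits of the respiratory chain were examined in HEK293T cells, a line of human embryonic kidney origin, that had been made to express a protamine. The subunits were chosen by gene symbol: the NDUFA, NDUFB, NDUFC, NDUFS and NDUFV genes, SDHA to SDHD, the UQCR genes, the COX genes from COX4 to COX8, CYC1, CYCS, and the ATP5F1, ATP5M and ATP5P genes. Of 57338 genes in the table, 156 had such a symbol, of which 65 were pseudogenes and 2 were non-coding, leaving 89 subunit genes. By the complex they belong to, 36 were of complex I, 4 of complex II, 10 of complex III, 1 was cytochrome c, 19 were of complex IV and 19 of complex V. NDUFA4 and NDUFA4L2 were counted with complex IV, with which the NDUFA4 protein purifies. The subunits coded by mitochondrial DNA are not analysed here, since the authors removed mitochondrial genes from the table.

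The respiratory chain sits in the inner mitochondrial membrane. Complex I (NADH dehydrogenase) and complex II (succinate dehydrogenase) pass electrons to ubiquinone, complex III passes them to cytochrome c, and complex IV (cytochrome c oxidase) passes them to oxygen. The proton gradient that complexes I, III and IV build drives complex V, the ATP synthase. Several complex IV subunits exist as a common form and as a form found mainly in heart and muscle, in lung or in testis, so the isoforms that a cell transcribes reflect its tissue.

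The cells carried an empty vector, human PRM1 fused to EGFP (hPRM1) or human PRM2 fused to EGFP (hPRM2), with 3 libraries for each. Protamines are the small arginine-rich proteins that replace histones in sperm, and the comparison asks how transcripts change when a somatic cell holds one. Cells with high EGFP were sorted 3 days after transfection, and RNA was read with a library kit that captures the 3′ ends of mRNA. Levels are given as RPKM, the reads on a gene scaled by all reads on genes in the library and by gene length. The labels do not say that the replicates came from separate cultures, so the p-values measure only the spread between these libraries. In bulk samples, fewer cells of a type and less RNA per cell cannot be told apart.

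The libraries labelled hPRM1 went against their label in several ways. PRM1 was listed at 0 in all 9 libraries, whereas PRM2 stood at 71224, 60050.2 and 36130.2 RPKM in the hPRM2 libraries and at 0 in the others. Of 10 genes typical of HEK293T cells, 9 to 10 reached 1 RPKM in the empty vector libraries (summed level 223 to 311 RPKM) and 9 did in hPRM2 (157 to 209), but 0 of 10 did in the libraries labelled hPRM1 (0 to 0.556). In these, 9 of 10 neutrophil and monocyte markers reached 1 RPKM, with a summed level of 4029 to 5078 RPKM against 0.284 to 3.02 in the empty vector. All 10 lymphocyte markers did too (849 to 1077 RPKM against 0.739 to 1.68). Genes of red blood cells took 55.4% to 62.2% of the reads on genes there, estimated as RPKM times gene length, and at most 0.00115% elsewhere. The names of these 3 libraries are also from another number series than those of the other 6, so library series and condition cannot be told apart. The reads on genes were estimated at 7840000 to 10670000 per library for the empty vector, 4160000 to 5800000 for hPRM1 and 1260000 to 2640000 for hPRM2.

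Promoter sequence was looked at for the subunits because 80 of them were called lower, and 0 higher, in the libraries labelled hPRM1. Of all genes tested, 62.5% were called lower and 12.9% higher there. Whether the motifs go with the lower values was not tested. RefSeq (GRCh38.p14) gave 85 promoters for 71 of the 89 subunits, each from 250 bases before to 50 bases after a transcription start. In these 300 bases, searched on both strands, the letters GCATGCGC, which the respiratory factor NRF1 binds, were present in 17.6% of the subunits' promoters and in 2.63% of all 35116 promoters. The letters CCGGAAG, which ETS factors such as GABP bind, were present in 22.4% against 8.52%. ATGGCGG, which YY1 binds, was present in 8.24% against 2.88%, and GGGCGG, which SP1 binds, in 55.3% against 42.6%. TATAAA, the letters of a TATA box, was present at any position of the 300 bases in 8.24% against 10.7%. These shares describe letters and not bound sites. The subunits' promoters also held more CpG (median 18, and 11 in all promoters), and the part of CpG content in the shares was not tested.

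The 250 bases before the start are shown for 5 subunits, 5′ to 3′ on the gene's strand, with matches to the 5 motifs in capitals. NDUFA4 (chr7:10940154-10940403, minus strand) and UQCRQ (chr5:132866392-132866641, plus strand) are shown as subunits with low values in the libraries labelled hPRM1, and CYCS (chr7:25125261-25125510, minus strand) as the electron carrier between complexes III and IV. COX6A1 (chr12:120437863-120438112, plus strand) and its muscle form COX6A2 (chr16:31428361-31428610, minus strand) are shown because the first was among the higher subunits in these cells and the other was at 0 in all 9 libraries.
NDUFA4: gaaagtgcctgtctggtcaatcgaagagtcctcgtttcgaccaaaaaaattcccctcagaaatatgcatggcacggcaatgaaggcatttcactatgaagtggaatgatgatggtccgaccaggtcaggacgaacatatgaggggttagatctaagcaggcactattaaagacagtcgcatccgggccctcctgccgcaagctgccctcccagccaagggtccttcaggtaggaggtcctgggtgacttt
UQCRQ: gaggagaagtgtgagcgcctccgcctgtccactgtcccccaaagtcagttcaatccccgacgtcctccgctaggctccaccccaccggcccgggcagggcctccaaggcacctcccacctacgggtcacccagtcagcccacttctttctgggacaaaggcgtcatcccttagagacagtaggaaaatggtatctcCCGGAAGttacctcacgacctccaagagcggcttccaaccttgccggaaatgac
CYCS: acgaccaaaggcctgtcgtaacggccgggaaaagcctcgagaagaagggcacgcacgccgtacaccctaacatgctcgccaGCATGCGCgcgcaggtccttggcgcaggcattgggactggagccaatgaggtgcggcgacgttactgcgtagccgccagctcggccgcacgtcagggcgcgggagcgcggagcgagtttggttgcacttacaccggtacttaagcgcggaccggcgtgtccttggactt
COX6A1: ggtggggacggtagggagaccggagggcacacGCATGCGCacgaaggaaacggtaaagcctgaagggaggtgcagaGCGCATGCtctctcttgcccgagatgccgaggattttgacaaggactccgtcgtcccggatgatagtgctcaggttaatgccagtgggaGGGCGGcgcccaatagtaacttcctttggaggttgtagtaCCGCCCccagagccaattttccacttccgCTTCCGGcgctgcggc
COX6A2: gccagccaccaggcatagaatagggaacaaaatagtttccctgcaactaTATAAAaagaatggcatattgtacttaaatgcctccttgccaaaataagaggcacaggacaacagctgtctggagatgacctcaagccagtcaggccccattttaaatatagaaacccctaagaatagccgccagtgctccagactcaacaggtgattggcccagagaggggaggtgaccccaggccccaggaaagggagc
The COX6A1 stretch held 2 NRF1 matches, 1 ETS match, 2 SP1 matches and 19 CpG, and the COX6A2 stretch held 1 TATAAA and 1 CpG. UQCRQ held 1 ETS match, CYCS held 1 NRF1 match and 31 CpG, and NDUFA4 held 0 matches to any of the 5 motifs.

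In the empty vector libraries most subunits were well above the detection limit. Of the 89, 79 reached 10 RPKM in all 3 of these libraries, 79 reached 1 RPKM in all 9 libraries, and 5 were at 0 in all 9. The summed level of the 89 was 61194, 56871 and 74479 RPKM in the 3 libraries. Complex I held 37.4% ± 1.19 of this sum (SD, n = 3), complex V 33.3% ± 0.936, complex IV 20.3% ± 0.222, complex III 8.23% ± 0.622, complex II 0.480% ± 0.139 and cytochrome c 0.321% ± 0.0335. Since the complexes have different numbers of genes, the median level of a subunit is the closer comparison. It was 811 ± 42.8 RPKM for complex V, 343 ± 59.1 for complex IV, 330.2 ± 40.3 for complex I, 313 ± 49.0 for complex III and 75.8 ± 36.6 for complex II. The medians of complexes I, III and IV did not differ beyond their spread. That of complex IV is over all 19 genes, of which only 12 passed the filter on low values used below. Isoforms at or near 0 therefore lower it, and it understates the level of the expressed complex IV subunits.

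Within each complex the subunits spanned a wide range of RPKM. In complex V the catalytic beta subunit ATP5F1B was highest, at 4317 ± 829.8 RPKM, whereas its partner in the same head, the alpha subunit ATP5F1A, had the lowest RPKM of those above 1, at 80.8 ± 16.3. In complex I the accessory subunit NDUFB1 stood at 4260.1 ± 519 RPKM, not different from ATP5F1B beyond the spread, and the core iron-sulfur subunit NDUFS1 stood at 16.2 ± 1.25. In complex IV COX8A was highest (2796 ± 593 RPKM), and in complex III UQCRH (1607 ± 334) was highest and UQCRFS1, the Rieske iron-sulfur protein, was at 59.0 ± 2.02. In complex II the flavoprotein SDHA stood at 125 ± 80.5 RPKM and the iron-sulfur subunit SDHB at 120.2 ± 56.6. The membrane anchors SDHD (48.4 ± 5.96) and SDHC (22.2 ± 3.33) had lower RPKM in every empty vector library. The empty vector values of SDHA, 57.3 to 214 RPKM, began just above those of SDHD, 42.3 to 54.2. A kit that reads 3′ ends gives a read per transcript whatever its length, so dividing by length lifts short genes. When RPKM was multiplied by the longest transcript, only 4 of the 10 highest subunits stayed among the 10 highest.

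Subunit forms found mainly in muscle, lung or testis were absent or low. COX4I2 (the lung form), COX6A2 and COX7A1 (the heart and muscle forms), COX7B2 (a testis form) and the readthrough gene ATP5MF-PTCD1 were at 0 RPKM in all 9 libraries. The common partners were high in the empty vector, with COX4I1 at 839, 785 and 995 RPKM, COX6A1 at 1919, 1861 and 2069 RPKM and COX7A2 at 1402, 986 and 1704 RPKM. At this depth a count of 0 allowed at most 0.0701% of the COX7A1 and COX7A2 pair in the empty vector, where the limit is 3 reads in a library and covers counting error only. In the libraries labelled hPRM1, where the common partners were low, a 0 allowed up to 6.03% of the COX6A1 and COX6A2 pair, up to 20.7% of the NDUFA4 and NDUFA4L2 pair and up to 86.6% of the COX7B and COX7B2 pair. There the 0 of COX7B2 thus says nothing of its share. COX6B2, a testis form, was at 0, 0.166 and 0.985 RPKM in the empty vector, at 0 in the libraries labelled hPRM1, and at 0, 7.88 and 8.81 in hPRM2, so the hPRM2 libraries overlapped the empty vector at 0. NDUFA4L2, the paralog of NDUFA4 known as a hypoxia-induced gene, was at 0, 0.952 and 0 RPKM in the empty vector, at 0 in the libraries labelled hPRM1 and at 0, 9.59 and 0.671 in hPRM2. COX8C, another testis form, was above 0 in only 2 libraries, at 2.95 RPKM in empty vector replicate 3 and 0.676 in hPRM1 replicate 3.

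Almost every subunit was lower in the libraries labelled hPRM1 than in the empty vector. Of 81 subunits that passed the filter on low values (at least 1 RPKM in at least 3 of the 6 libraries), 79 of which reached 1 RPKM in all 9 libraries, 80 were called lower and 0 higher by limma on log2(RPKM + 1), at an adjusted p not above 0.05 and a change of 2-fold or more. Over all genes tested, 62.5% were called lower and 12.9% higher, so the 98.8% of the subunits stand against a high background. A per-gene test with unequal variances, as the study used, called 60 lower, beside 27.4% of all genes. For 80 of the 81 the 3 libraries of the groups did not overlap, as for 80.8% of all genes. The median log2 fold change of the subunits was -3.67, and that of all 13588 genes tested was -1.72. The subunit not called was UQCRHL, a UQCRH copy without introns that may share reads with it, with empty vector values of 1.27, 0 and 2.12 RPKM and hPRM1 values of 1.01, 0.248 and 1.10 (log2 fold change -0.14 ± 0.45 (SE), adjusted p = 0.783 by limma).

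**Figure D1:**
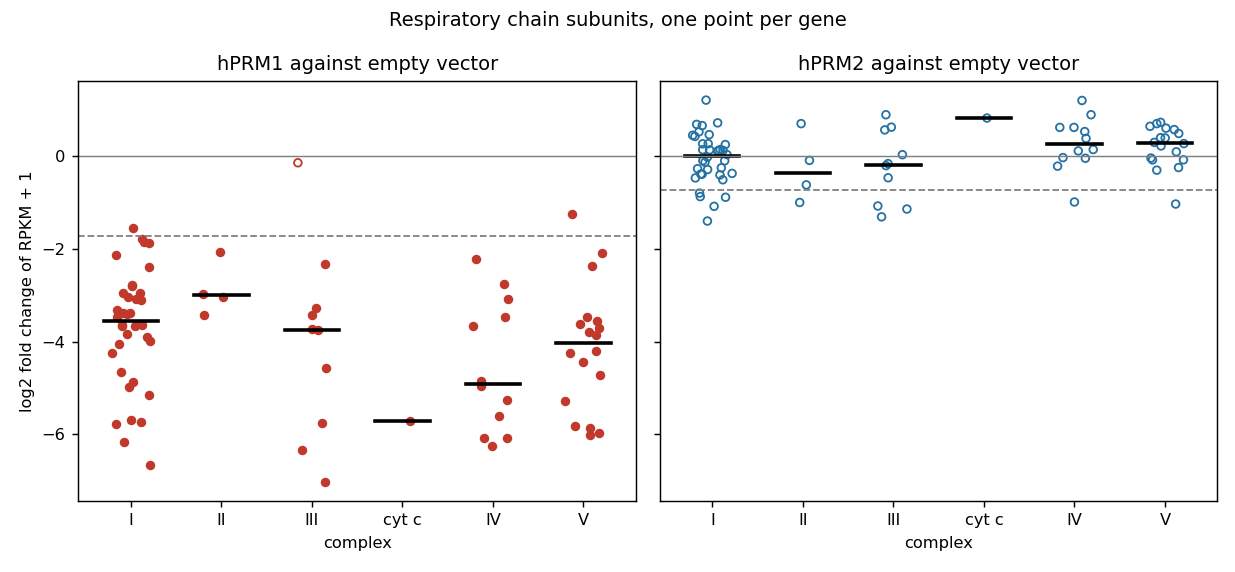
Log2 fold change on log2(RPKM + 1) of each subunit tested, by complex, for the libraries labelled hPRM1 (one panel) and hPRM2 (the other) against the empty vector. Each point is a gene, filled where called and open where not, the black bar is the median of the complex and the dashed line the median of all genes tested; for hPRM1 80 points are filled and lie at -1.24 or lower, and for hPRM2 all points are open and lie between -1.40 and 1.21.

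The values were widely spread, with 20 of the 81 log2 fold changes below -5 and 6 above -2. The median differed between complexes. The median log2 fold change was -3.55 for the 36 tested subunits of complex I, -3.004 for the 4 of complex II, -3.74 for the 10 of complex III, -4.91 for the 12 of complex IV and -4.03 for the 18 of complex V. All of them were called lower in complexes I, II, IV and V, and 9 of 10 in complex III. Within complex I the 7 core subunits, which carry the redox centres, had a median of -2.96 and the 29 accessory subunits a median of -3.67. Within complex V the median was -3.56 for the 5 subunits of the catalytic head, -5.30 for the 4 of the peripheral stalk, which holds the head in place, and -4.21 for the 3 c ring genes. No test was made of these differences between complexes, because genes are not replicates. Gene length moved with the values. The 41 subunits with the shorter longest transcripts (median over all 81, 1582 bases) had median log2 ratios to the empty vector mean of -4.01, -3.92 and -4.07 in the 3 libraries labelled hPRM1, and the 40 longer ones -3.35, -3.51 and -3.62. In hPRM2 the shorter ones had 0.68, 0.15 and -0.06 and the longer ones 0.62, -0.60 and -0.24. The part of gene length in the results was not tested.

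Among the complex I subunits, NDUFS5, an accessory subunit, was at 2129.5, 1795 and 2269 RPKM in the empty vector, at 24.4, 17.0 and 17.6 in the libraries labelled hPRM1, and at 3762, 2268 and 1766 in hPRM2. Every library labelled hPRM1 lay below every library of the other groups, and the log2 fold change was -6.66 ± 0.20 (SE; adjusted p = 2.46e-06 by limma). NDUFB1 was at 4015, 3909 and 4856 RPKM, at 57.5, 60.7 and 57.4, and at 9620.4, 4892 and 4117 in the same order of groups. It fell by 6.16 ± 0.15 on the log2 scale (adjusted p = 1.97e-06 by limma), with groups that did not overlap. The core subunit NDUFS1 was at 17.1, 16.7 and 14.8 RPKM in the empty vector, against 1.23, 1.27 and 1.12 in those labelled hPRM1, a smaller difference of -2.96 ± 0.19 on the log2 scale that is understated by the added 1 RPKM at such low levels.

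Among the succinate dehydrogenase genes, SDHA spread most between the empty vector libraries (coefficient of variation 64.4%). SDHA was at 104, 57.3 and 214 RPKM in the empty vector, 38.4, 7.94 and 6.73 in those labelled hPRM1, and 40.5, 59.5 and 64.5 in hPRM2. hPRM1 replicate 1 lay well above the other 2 libraries of its group and close to the lowest empty vector library, without overlap (log2 fold change -2.97 ± 0.74, adjusted p = 0.00875 by limma). Its call was lost after the median of ratios, after quantile normalization and without red blood cell genes (adjusted p = 0.564, 0.198 and 0.0933). SDHB fell by 3.04 ± 0.48 and SDHD by 3.43 ± 0.25 on the log2 scale (adjusted p = 0.001 and 2.99e-05). SDHC, at 20.5, 19.9 and 26.0 RPKM in the empty vector against 6.0003, 6.79 and 2.01, fell by 2.07 ± 0.39 (adjusted p = 0.00244). SDHB and SDHC lost their calls under the first 2 of these settings, and SDHC also without red blood cell genes and in the limma fit of all 9 libraries (adjusted p = 0.106).

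On log2(RPKM + 1), UQCRQ, a small complex III subunit, had the lowest log2 fold change of all 81. This rank depended on the added 1 RPKM, and after the median of ratios UQCRQ (-4.62) and COX7B (-4.61) were level. UQCRQ was at 1369, 1195 and 1212 RPKM in the empty vector, at 16.7, 7.26 and 5.20 in the libraries labelled hPRM1 and at 2096, 2707 and 2239.6 in hPRM2. The libraries labelled hPRM1 were far below both other groups, and the log2 fold change against the empty vector was -7.02 ± 0.38 (adjusted p = 1.05e-05 by limma). UQCRB, which is needed for complex III assembly, fell by 6.33 ± 0.22 on the log2 scale, and CYC1, the heme subunit cytochrome c1, by 3.76 ± 0.23. CYCS, the mobile electron carrier whose release also triggers apoptosis, was at 201, 162 and 261 RPKM in the empty vector, at 4.31, 2.91 and 1.85 in the libraries labelled hPRM1 and at 436, 406 and 266 in hPRM2. Its log2 fold change in the libraries labelled hPRM1 was -5.72 ± 0.30 (adjusted p = 9.58e-06 by limma).

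Complex IV had the lowest median of the complexes with more than 1 subunit. NDUFA4 was at 366, 276 and 387 RPKM in the empty vector, 9.92, 2.91 and 6.94 in those labelled hPRM1 and 667, 418 and 511 in hPRM2, with no overlap between any of the 3 groups. Its log2 fold change in the libraries labelled hPRM1 was -5.61 ± 0.39 (adjusted p = 2.62e-05 by limma). COX7A2 was at 69.9, 29.4 and 18.7 RPKM in the libraries labelled hPRM1, below its empty vector values given above, with a log2 fold change of -5.26 ± 0.48 (adjusted p = 7.76e-05). COX7B was at 95.1, 132 and 100.1 RPKM in the empty vector, against 0.614, 0.434 and 0.245 in those labelled hPRM1, where these values stand for an estimated 7.9, 4.0 and 2.8 reads. Its log2 fold change of -6.26 ± 0.23 therefore depends on the added 1 RPKM. COX6B1 fell least, from 805, 657 and 870.3 RPKM to 176, 169 and 154, which is -2.21 ± 0.16 on the log2 scale (adjusted p = 3.1e-05).

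In complex V the head subunits moved by unequal amounts. ATP5F1B was at 4147, 3586 and 5219 RPKM in the empty vector, at 341, 366 and 379 in the libraries labelled hPRM1 and at 5581, 4005 and 4215 in hPRM2. Its libraries labelled hPRM1 agreed closely with each other and lay below all others, with a log2 fold change of -3.56 ± 0.17 (adjusted p = 6.9e-06 by limma). ATP5F1D, the delta subunit of the central stalk, had the smallest fall of the 80 that were called. It was at 364, 491 and 356 RPKM in the empty vector, at 159, 196 and 153 in the libraries labelled hPRM1 and at 112, 172 and 380.0 in hPRM2, a log2 fold change of -1.24 ± 0.19 against the empty vector (adjusted p = 0.000971 by limma). ATP5MK, a small membrane subunit, fell by 6.02 ± 0.31 on the log2 scale, with 2923, 2549 and 3281 RPKM in the empty vector against 70.3, 39.6 and 30.2.

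**Figure D2:**
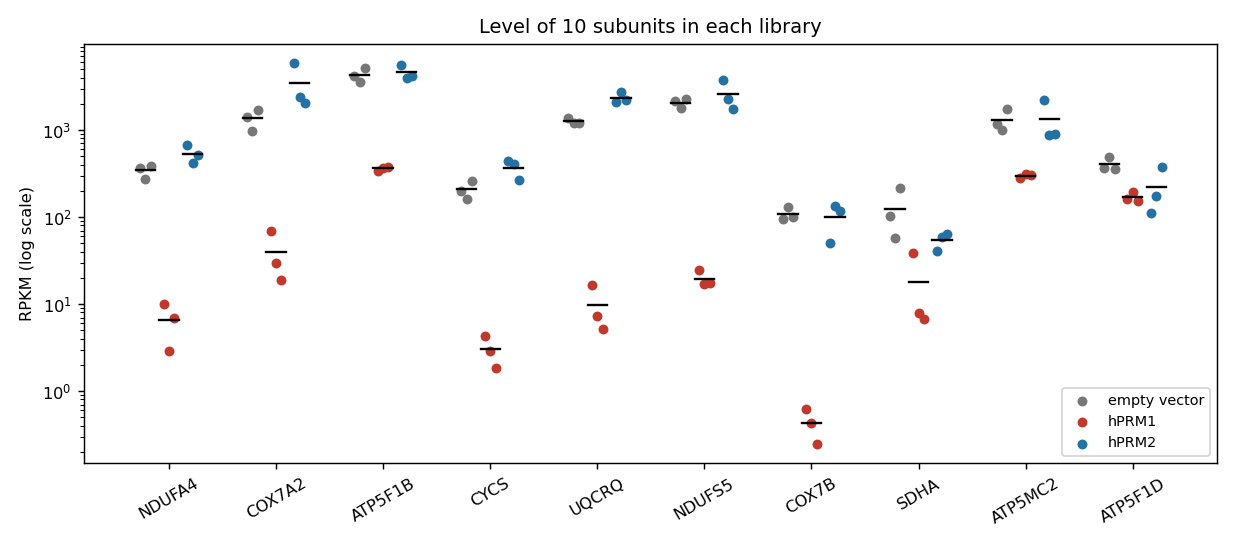
RPKM on a log axis of 10 subunits in each of the 9 libraries, with the bar at the mean of the 3 libraries of a group. The libraries labelled hPRM1 lie below the empty vector libraries for all 10. On this axis COX7B falls the most (0.614, 0.434 and 0.245 RPKM against 95.1, 132 and 100.1). ATP5F1D falls the least (mean 169.6 against 404 RPKM), and UQCRQ has means of 9.71 against 1259 RPKM.

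The 3 genes for the c ring of ATP synthase, the rotor through which protons pass, code for the same mature protein and differ in their import sequence. ATP5MC1 was at 1874, 2001 and 2846 RPKM in the empty vector against 108, 141 and 109 in those labelled hPRM1. ATP5MC3 was at 1323, 1329 and 1945 against 94.7, 76.8 and 65.6, and ATP5MC2 was at 1184, 1006 and 1754 against 278, 314 and 304. The makeup of the summed RPKM thus shifted. ATP5MC2 made up 25.7% ± 2.15 of it in the empty vector, 60.1% ± 3.00 in the libraries labelled hPRM1 and 23.7% ± 1.70 in hPRM2 (SD, n = 3 each), and ATP5MC1 made up 44.1%, 23.9% and 42.0%. The shares do not depend on how libraries are scaled to each other. An exact permutation test (two-sided) of the ATP5MC2 share in the libraries labelled hPRM1 against the empty vector gave p = 0.1, the smallest that 3 libraries against 3 allow, and 0.167 after adjustment over the 10 shares tested.

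**Figure D3:**
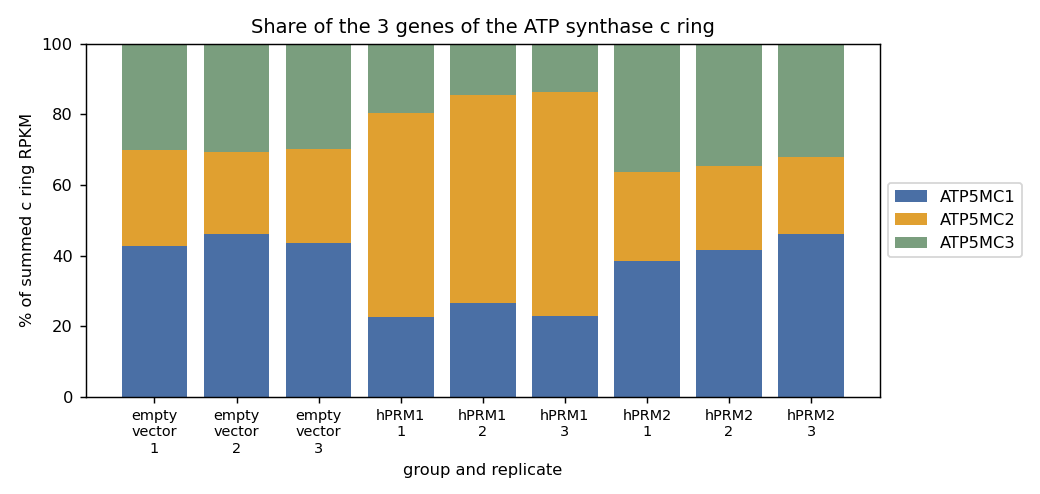
Share, in percent of their summed RPKM, of the c ring genes ATP5MC1, ATP5MC2 and ATP5MC3 in each of the 9 libraries, as stacked bars. ATP5MC2 is the largest share in the 3 libraries labelled hPRM1 (mean 60.1%) and the smallest share in the other 6.

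A similar shift between related genes was seen for COX7A2L, a COX7A2 paralog that takes part in joining complexes III and IV. Its share of the summed RPKM of COX7A2 and COX7A2L was 4.12% ± 1.23 in the empty vector, 15.8% ± 8.67 in the libraries labelled hPRM1 and 1.13% ± 0.756 in hPRM2 (exact permutation p = 0.1 for each against the empty vector). ATP5MGL, a retrocopy of the membrane subunit gene ATP5MG, had a share of 13.0%, 13.7% and 12.4% of the pair in the empty vector, hPRM1 and hPRM2 libraries, and reads of the copies may be split between them.

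The size of the reduction, and for some subunits its direction, depended on the scaling between libraries. Leaving red blood cell genes out of the totals raised every other RPKM in the libraries labelled hPRM1 by 1.16 to 1.40 on the log2 scale. With this alternative, chosen after seeing the data, 70 subunits were called lower and 0 higher, beside 41.7% of all genes called lower and 21.8% higher, with a median of -2.42 against -0.73 for all genes. After rescaling by the median of ratios 51 (63.0%) were called lower and 1 higher, beside 25.1% of all genes called lower and 32.6% higher, with a median of -1.23 against 0.14. After quantile normalization 64 (79.0%) were called lower and 0 higher, beside 32.3% and 25.6% of all genes, with a median of -1.87 against -0.30. Of all calls, 17.1% were higher on the RPKM scale, 56.5% when rescaled by the median of ratios and 44.2% with quantiles made equal. The subunits' median lay 1.37 to 1.96 below that of all genes under each of the 4 scalings, and ATP5F1D was the subunit called higher after the median of ratios (1.26). The gap also depended on the filter on low values. On the RPKM scale with a minimum of 10 RPKM, the medians were -3.72 for the subunits and -2.43 for all genes. There 79 of 79 subunits were called lower, beside 4970 of 6983 genes.

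**Figure D4:**
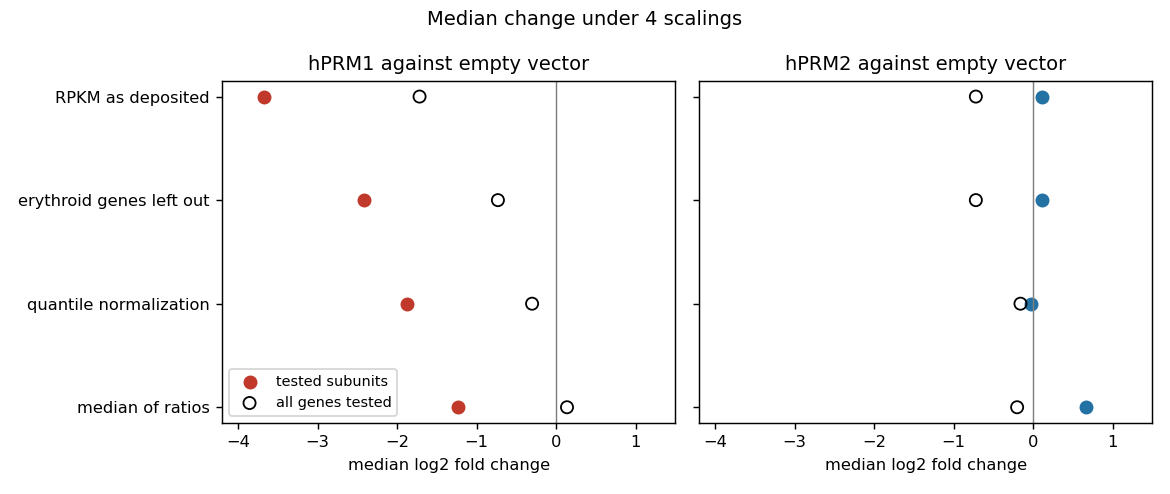
Median log2 fold change of the subunits tested and of all genes tested, for each comparison with the empty vector, under 4 scalings between libraries. For hPRM1 the subunits lie at -3.67 as deposited and at -1.23 after the median of ratios, below all genes each time.

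In hPRM2 none of the 81 subunits tested was called in either direction. By limma 0 were called lower and 0 higher, beside 1.37% and 1.36% of the 13126 genes tested. An unadjusted p under 0.05 was reached by 13 of the 81 subunits, beside 3351 of the 13126 genes. The median log2 fold change of the subunits was 0.11 and that of all genes -0.72, a gap of 0.83 that shrank to 0.14 after quantile normalization (-0.02 and -0.16). The subunits had a range from -1.40 (NDUFV3) to 1.21 (NDUFC2, chosen after its values were seen). The hPRM2 and empty vector libraries did not overlap for 26 subunits (32.1%), 11 of them lower and 15 higher, beside 35.9% of all genes. The medians were 0.01 for complex I, -0.36 for complex II, -0.18 for complex III, 0.26 for complex IV and 0.28 for complex V. This comparison shares its empty vector libraries with the one above.

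The smallest adjusted p was that of UQCRQ, whose hPRM2 values, given above, all exceeded those of the empty vector (log2 fold change 0.89 ± 0.21, adjusted p = 0.0712 by limma). CYCS (0.82 ± 0.33, adjusted p = 0.183), NDUFA4 (0.62 ± 0.30, 0.239) and COX7A2 (1.20 ± 0.44, 0.156) also had groups that did not overlap, with the hPRM2 libraries higher and not past the threshold. COX7A2 stood at 5885, 2368 and 2055 RPKM in hPRM2. ATP5F1B had a log2 fold change of 0.09 ± 0.23 (adjusted p = 0.814), with overlapping groups. Lower in every hPRM2 library but not called were the iron-sulfur subunits UQCRFS1 (34.4, 15.3 and 23.5 RPKM against 56.8, 59.6 and 60.7; -1.31 ± 0.42, adjusted p = 0.123) and NDUFS1 (-1.08 ± 0.61, 0.301), and CYC1 (80.0, 69.0 and 114 RPKM against 174, 168 and 235; -1.14 ± 0.33, 0.106).

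The hPRM2 libraries differed among themselves more than the others did. The summed level of the subunits was 123224, 66034 and 62707 RPKM in hPRM2 replicates 1, 2 and 3, and replicate 1 was the highest of the 3 for 63 of the 81 subunits. The median log2 ratio of the subunits to the empty vector mean was 0.66, -0.35 and -0.18 in the 3 libraries, while that of all genes was -0.71, -0.72 and -0.48. The median coefficient of variation of a subunit was 39.9% in hPRM2, 21.8% in the libraries labelled hPRM1 and 14.6% in the empty vector. SDHC was the clearest case, at 250.1 RPKM in replicate 1 and 11.9 and 15.1 in the others. The median was -0.0043 without empty vector replicate 2. Without hPRM2 replicate 1 it turned to -0.27. There limma called 3 subunits lower and 0 higher, beside 1577 lower and 680 higher of the 12825 genes tested. The 3 were NDUFV3 (-1.85), the complex V head subunit ATP5F1C (-1.11) and UQCRFS1 (-1.58), of which ATP5F1C was chosen after its values were seen. NDUFV3 was at 70.4, 17.0 and 42.6 RPKM in hPRM2 against 90.6, 95.7 and 115 in the empty vector.

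**Figure D5:**
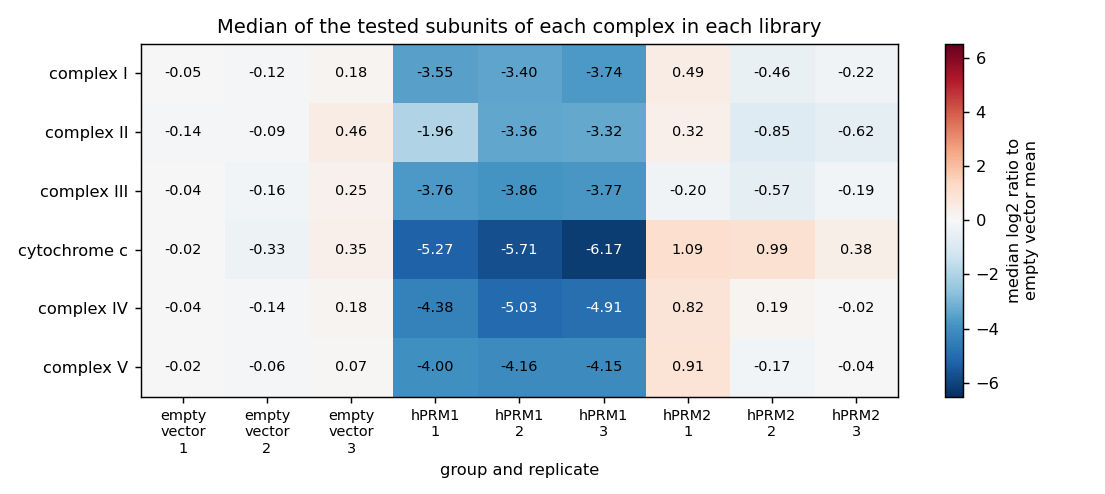
Median log2 ratio of the subunits of each complex to the empty vector mean, in each of the 9 libraries, as a colour scale. The libraries labelled hPRM1 are low for every complex, and hPRM2 replicate 1 stands above replicates 2 and 3 except in complex III, where replicate 1 (-0.20) and replicate 3 (-0.19) are alike.

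Between the libraries labelled hPRM1 and those of hPRM2, 76 subunits were called lower in hPRM1 and 0 higher, beside 37.0% and 16.0% of the 11756 genes tested. The per-gene test called only 1 subunit lower, beside 0.876% of all genes. In this test 37 of the 81 subunits had an unadjusted p under 0.05, beside 3233 of the 11756 genes. The median log2 fold change was -3.71 for the subunits and -0.97 for all genes. UQCRQ had the lowest value (-7.91 ± 0.43, adjusted p = 9.87e-05 by limma), then COX6C (-6.97 ± 0.45) and UQCRB. NDUFS5 (-6.92 ± 0.35) was the lowest of complex I. Subunits not called included ATP5F1D (-0.21 ± 0.47, adjusted p = 0.741), SDHA (-1.97 ± 0.68, 0.0507), SDHC (-2.77 ± 1.20, 0.0998) and UQCRHL (0.06 ± 0.65, 0.945).

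Genes that serve the chain without matching the symbol rule were also mostly lower in the libraries labelled hPRM1, where 62.5% of all genes were called lower and 12.9% higher. Of 6 genes tested that code for other subunits or the ATP synthase inhibitor, 6 were called lower, with a median log2 fold change of -3.67, from HIGD1A (-5.37) to STMP1 (-1.76). Of 57 assembly factors tested, which build the complexes but do not remain in them, 55 were called lower and 0 higher, with a median of -2.95. COA6, which takes part in copper delivery to complex IV, had -5.97, and COX19 had -0.43 (adjusted p = 0.167 by limma). Of 13 enzymes of the TCA cycle, which supplies NADH and succinate to the chain, 12 were called lower (median -2.65), with IDH3A at -3.67 and OGDH not called at -0.24 (adjusted p = 0.281). Of 13 regulators of mitochondrial biogenesis 12 were called lower (median -2.43), with TFB1M, a mitochondrial rRNA methyltransferase, at -3.33. In hPRM2 0 genes of any of these lists were called by limma, and the assembly factors had a median of -0.47. All 9 tested genes of the HEK293T list were called lower in the libraries labelled hPRM1 too, with a median of -4.53. Since 0 of the 10 listed genes reached 1 RPKM there, these 9 passed the filter only through the empty vector libraries. Their direction was thus fixed in advance, and they are no measure for the subunits.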

How the data were processed

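The 9 RNA libraries are labelled as HEK293T cells with the empty vector, hPRM1 or hPRM2 (3 each), and the values of those labelled hPRM1 went against this. The authors processed the reads with nf-core/rnaseq, removed mitochondrial genes and deposited RPKM values without counts. The submitters' processing notes name FastQC, cutadapt, STAR, Salmon and the build hg38; tool versions and annotation are not given in the sources used here. A stretch of 3′ sequencing covers only the end of a transcript, so division by gene length weights short genes up. Reads per library were estimated from the steps between low values of genes with 1 transcript in GENCODE 29, and are approximate.

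Tests were made with limma 3.58.1 (trend and robust) in R 4.3.3 on log2(RPKM + 1), in genes with at least 1 RPKM in at least 3 of the 6 libraries, with Benjamini-Hochberg adjustment over every gene tested. Genes were called at an adjusted p not above 0.05 and a change of 2-fold or more. Each comparison was fitted alone, without a replicate block, and tested on simulated data. Other values and plots came from Python 3.11.15, pandas 2.3.3, numpy 2.4.6 and matplotlib 3.10.9. The alternatives tried were no low-value filter or one of 10 RPKM, a pseudocount of 0.1 or 5, other scalings and all 9 libraries in 1 fit. Further ones were the replicate number as a block, a per-gene t-test with unequal variances and no fold threshold. Pseudogene values were also added to their parent gene, and each replicate was left out. Leaving out red blood cell genes was added after seeing the data. Named were the 3 leading subunits NDUFA4, COX7A2 and ATP5F1B, isoform pairs, the highest and lowest subunit of each complex, the largest changes, the SDH genes, CYCS and CYC1. The subunits and lists were chosen with earlier results of these data known.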

Additional observations from a re-analysis of the deposited data

Results flagged for a closer look

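Pseudogenes of the subunits were left out of every comparison, and 15 of them were at 0 RPKM in all 3 empty vector libraries but above 0 in another library. Of these, 4 reached 1 RPKM in at least 2 libraries of a group. ATP5F1EP2, a copy of the complex V epsilon subunit gene, had a mean of 880.3 RPKM in hPRM2, from 2496, 145 and 0 in the 3 libraries. COX7CP2 had a mean of 86.1 RPKM in hPRM2 (0, 100.01 and 158). In the libraries labelled hPRM1, COX5BP6 had a mean of 24.9 RPKM (33.0, 23.0 and 18.5) and ATP5MFP4 a mean of 14.8 (37.5, 0 and 7.01). Reads of near-identical copies can be assigned to either gene, so these values are uncertain. Of 230 such pseudogenes in the table, 206 were at 0 in all 9 libraries.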

How the results depend on the processing

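For the libraries labelled hPRM1 against the empty vector, 79 to 80 subunits stayed lower when a replicate was left out, with medians of -3.75 to -3.58. The per-gene test called 60, and with it COX7A2, CYCS, ATP5MC1, ATP5MC2, ATP5MC3, ATP5F1D, SDHA and SDHB were not called (adjusted p = 0.0523 to 0.183). The median moved to -3.52 with a pseudocount of 5, -1.23 after the median of ratios (51 lower, 1 higher), -1.87 after quantile normalization and -2.42 without red blood cell genes. Directions turned for ATP5F1A (0.054), ATP5F1D (1.26), ATP5MC2 (0.41), COX6B1 (0.29), SDHC (0.17) and UQCRHL (0.99) after the median of ratios, for ATP5F1D (0.63) and UQCRHL (0.88) after quantile normalization, for ATP5F1D (0.072) and UQCRHL (0.55) without red blood cell genes, and for UQCRHL with a pseudocount of 0.1 (0.20) or a replicate left out (-0.61 to 0.21). For hPRM2 against the empty vector, 1 subunit was called lower after quantile normalization (NDUFA12), beside 70 of 13126 genes. In the fit of all 9 libraries 3 were called lower (UQCRC2, UQCRFS1 and CYC1), beside 1618 of 13126 genes. When a replicate was left out 0 to 3 were called lower, with medians of -0.27 to 0.21, the 3 beside 1577 of 12825 genes. After the median of ratios 1 was called higher (ATP5ME), beside 214 of 13126 genes, and the median was 0.67. Of all 81, 37 had a negative fold change on the RPKM scale, 12 when rescaled by the median of ratios and 44 with quantile normalization. Among the named subunits, directions turned for ATP5F1B (quantile -0.50; replicates left out -0.054 to 0.24), SDHB (median of ratios 0.47, quantile 0.056; replicates left out -0.57 to 0.26) and SDHC (-0.67 to 1.47). For hPRM1 against hPRM2, the per-gene test called 1 lower. In this comparison 1 was called higher when rescaled by the median of ratios and 1 with quantile normalization, beside 3616 and 2897 of 11756 genes. Its median was -3.85 and -3.61 with pseudocounts of 0.1 and 5, -3.80 with a minimum of 10 RPKM, -1.83, -2.01 and -2.42 under the 3 other scalings, and -3.82 to -3.47 when a replicate was left out (70 to 77 lower). Of the 10 highest subunits, 4 kept that place when RPKM was multiplied by length. NDUFA12, UQCRC2 and ATP5ME are named after their values were seen. The cause of these changes was not tested. With an estimated 1260000 to 2640000 reads, the hPRM2 libraries give the widest limits, 1.13 to 2.38 RPM for a value of 0.

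The deviations of same-numbered libraries of 2 groups correlated between -0.08 and 0.08, and those of differently numbered ones between -0.10 and 0.11. With 3 libraries per group this cannot settle whether the numbers pair the libraries. With the replicate number as a block, 80, 0 and 75 subunits were called lower for hPRM1 and hPRM2 against the empty vector and hPRM1 against hPRM2. Of all genes tested, 8551 of 13588, 8 of 13126 and 4019 of 11756 were called lower in these fits.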
